A study of Homo sapiens with 4 samples.

Results

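The genes described here encode the cohesin ring and the proteins that load, release and position it: RAD21, SMC1A, SMC3, STAG1, STAG2, NIPBL, WAPL, PDS5A, PDS5B and CTCF. They were taken by gene symbol from the deposited table, 10 of its 60048 genes, and all 10 passed the filter on low values. The assay was EU-seq, which captures and sequences nascent RNA that has taken in the uridine analogue 5-ethynyl uridine (EU). The cells were HCT116, an established human colorectal carcinoma line, of genotype RAD21-mAC. In such a line RAD21 carries a degron tag, so that auxin sends the protein to the proteasome. The control group received DMSO (2 libraries) and the auxin group 0.5 mM indole-3-acetic acid for 3 h (2 libraries), and both carried the tag and were labelled with 0.5 mM EU for 20 min. No group received auxin without the degron, so loss of RAD21 protein and exposure to auxin cannot be told apart here. The labels do not say whether the line is a single clone or whether replicates came from separate cultures, so p-values measure only the spread between these libraries.

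Cohesin is a ring that holds DNA. SMC1A and SMC3 form its arms and RAD21 closes it, and either STAG1 or STAG2, but not both, binds RAD21 in each complex. NIPBL loads cohesin and drives the extrusion of chromatin loops, WAPL with PDS5A or PDS5B releases it, and CTCF, a zinc-finger DNA-binding protein, stops it at loop borders. STAG1 and STAG2 are paralogues with partly shared roles, and cells that lose STAG2, a gene often mutated in tumours, come to depend on STAG1. The comparison asks whether transcription of these genes changed after 3 h of auxin, and whether STAG1 and STAG2 moved alike.

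The start regions of the paralogues are shown because STAG1 and STAG2 gave the contrast described below. Each is the 250 bases ahead of the RefSeq start site on the gene's own strand (GRCh38.p14), at chr3:136752379-136752628 on the minus strand for STAG1 and chrX:123961062-123961311 on the plus strand for STAG2, the 1 of 3 RefSeq windows of STAG2 nearest to the gene start in the table. Capitals mark a match to CCANNAGNNGGC, a core of the sequence that CTCF binds.
STAG1: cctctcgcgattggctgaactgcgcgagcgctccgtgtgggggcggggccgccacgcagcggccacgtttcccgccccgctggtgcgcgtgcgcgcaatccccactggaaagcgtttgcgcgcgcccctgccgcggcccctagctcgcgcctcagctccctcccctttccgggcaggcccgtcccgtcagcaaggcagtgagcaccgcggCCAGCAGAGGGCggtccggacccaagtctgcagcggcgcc
STAG2: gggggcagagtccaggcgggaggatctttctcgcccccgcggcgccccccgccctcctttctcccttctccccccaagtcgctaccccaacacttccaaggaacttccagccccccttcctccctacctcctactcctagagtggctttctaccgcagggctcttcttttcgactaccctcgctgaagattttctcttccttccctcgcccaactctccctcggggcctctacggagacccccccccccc
The STAG1 stretch was 74.4% G and C with 34 CpG dinucleotides, and that of STAG2 was 64% G and C with 13. The motif was searched on both strands of RefSeq windows of 300 bases, 250 before and 50 after a start. STAG1 held 2 matches, from 40 to 29 bases before the start and from 19 to 30 bases after it. Of 35116 such windows, 845 (2.41%) held a match and 16 (0.0456%) held 2 or more. For the members, 1 window each was searched, the one nearest to the gene start in the table. This was done for 9 members, and RAD21 was left out. Only the STAG1 window held these letters, and other windows of the same genes were not read. A match is a description of letters, and binding was not measured here.

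The deposited values are named read counts, but their counting rule is not given. They were taken here to be a scaled signal per gene over its whole span, introns included. They were divided by a factor per library so that libraries are comparable, and "scaled signal" below means this value. The factors ranged from 0.818 to 1.21 and the deposited totals from 61135244 to 93113007. A shift shared by most genes would therefore not show. Whether the values separate strands is not known. Short pseudogenes lying inside a long gene on its strand (872 pseudogenes) had a median density 1.82 times that of the host. For those on the opposite strand (1509 pseudogenes) it was 1.6 times. Reads of near-identical copies could add to both, so these medians cannot show whether strands are kept apart. The 6 epithelial markers checked (EPCAM, KRT8, KRT18, CDH1, CDX2 and VIL1) carried 22.4 to 2052 units of scaled signal per kb of span. Leukocyte markers had 0.245 to 5.06 per kb and endothelial markers 2.14 to 3.02. Fibroblast markers had 0.0774 to 45.6, the highest being COL1A1, and COL1A2 was at 0 in 1 library. None was called, and COL1A2 and CD3E were too low to be tested. Summed over each list, epithelial markers had 48868 and 53943 units in control and 49788 and 51754 in auxin, and leukocyte markers 316 and 232 against 258 and 247, both with overlap. Within the epithelial list KRT8, KRT18, EPCAM and VIL1 were lower in both auxin libraries (log2 fold changes -0.30 to -0.19) and CDH1 higher (0.55, limma adjusted p = 0.0600), and CDX2 overlapped; KRT8 and CDH1 made up most of the sum. Fibroblast markers had 653 and 796 against 936 and 1074, mostly COL1A1, and endothelial markers 583 and 650 against 679 and 816, so these low sums were higher in auxin. Their part in the results was not tested.

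STAG1 was the 1 member called higher by limma. Its scaled signal was 26442 and 29928 in control replicates 1 and 2 and 44574 and 48805 in auxin replicates 1 and 2. Both auxin libraries lay above both controls, by 1.49-fold for the closest pair of libraries and 1.85-fold for the widest. The control mean was 28185 ± 2465 and the auxin mean 46690 ± 2992 (SD, n = 2 each), 1.66 times as high. On the log2 scale the difference was 0.73, standard error 0.10 (95% interval 0.50 to 0.96, limma adjusted p = 0.0132). Of 39464 tested genes, 291 passed the threshold of 0.05, which is 0.737%: 130 were higher (0.329%) and 161 lower (0.408%). On the deposited scale STAG1 read 26322 and 30316 in control and 36444 and 59199 in auxin, again without overlap. The call was lost on that scale (log2 fold change 0.72, limma adjusted p = 1.0) and when limma was run without its trend of spread with intensity (adjusted p = 0.530), a fit that called 0 genes of the whole table, with 3208 at an unadjusted p under 0.05.

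STAG1 (ENSG00000118007) spans 416 kb of chromosome 3 on the minus strand, from 136336236 to 136752378 in GRCh38. Of 3276 tested protein-coding genes of at least 100 kb, 29 (0.885%) were called higher and 59 (1.80%) lower, or 2.69% in either direction, beside 1.19% of all 17767 tested protein-coding genes. In that class 51 genes, or 1.56%, had a larger log2 fold change than STAG1. STAG1 stood at 0.75 once the dependence of signal on span was taken out of each library.

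STAG2 gave a smaller difference that did not pass the test. Its scaled signal was 4035 and 5148 in control and 4956 and 5885 in auxin. The groups overlapped, since auxin replicate 1 lay below control replicate 2. The difference was 0.24 on the log2 scale with a 95% interval from -0.11 to 0.60 (limma adjusted p = 0.718). The interval runs to a 1.52-fold increase, so with 2 libraries a group a rise of up to that size in STAG2 is not excluded. STAG2 (ENSG00000101972) spans 141 kb of chromosome X on the plus strand, from 123961314 to 124102656.

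**Figure D1:**
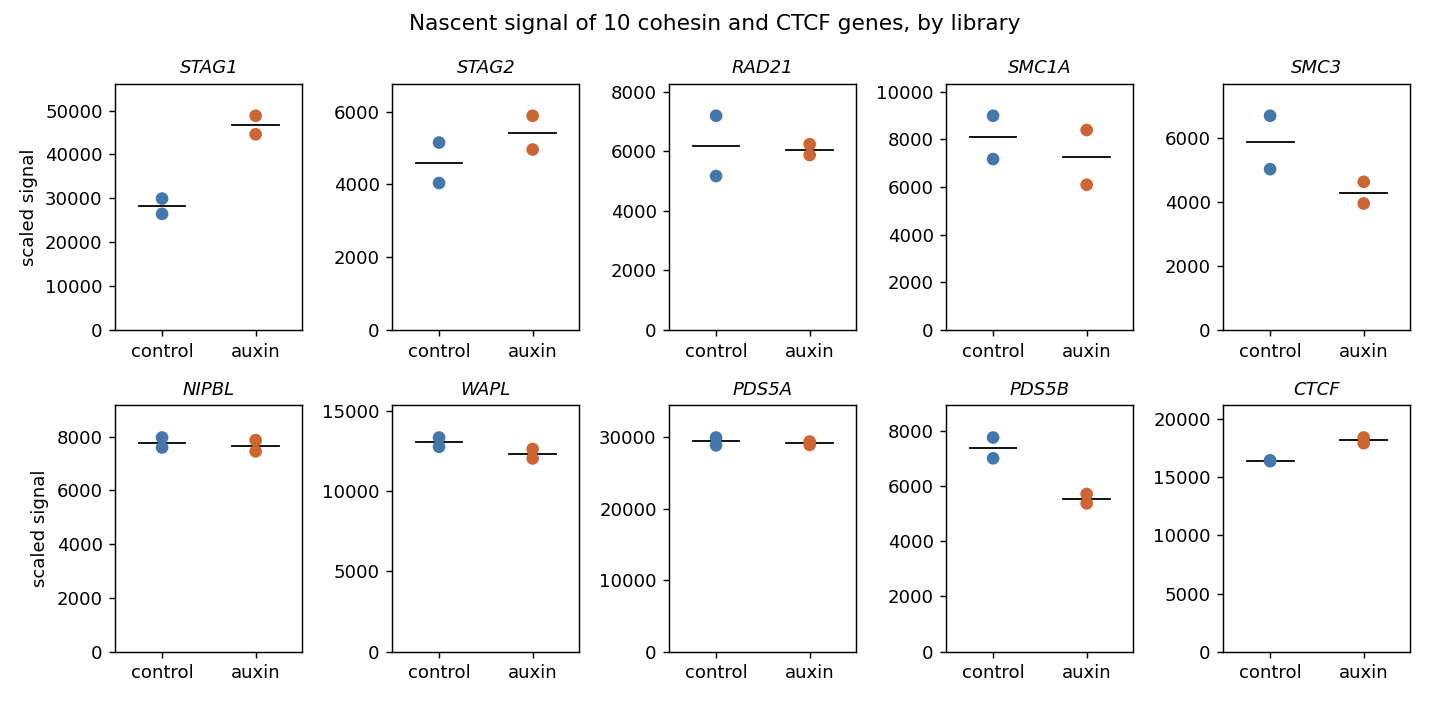
Scaled signal (vertical axes, each from 0) of the 10 genes in the 2 control and 2 auxin libraries. Points are libraries and bars are group means. STAG1 goes from a mean of 28185 to 46690, while NIPBL and PDS5A hardly move and SMC3 and PDS5B lie lower with auxin.

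The paralogues were next compared within each library, where the scaling of libraries cancels. STAG1 carried 6.55 and 5.81 times the signal of STAG2 in the control libraries and 8.99 and 8.29 times in the auxin libraries. The ratio was higher in both auxin libraries than in both controls. The difference of the log2 ratio was 0.48, against SDs of 0.122 in control and 0.0826 in auxin (n = 2 each). With 4 libraries the two-sided exact permutation p was 0.333, the smallest that 3 distinct splits allow, and 0.417 after Benjamini-Hochberg adjustment over 5 ratios. This exact test cannot reach 0.05 with 4 libraries, so the unequal movement of the pair is given as a measured difference without a call.

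Per kb of span, STAG1 stood at 63.5 and 71.9 units in control and 107 and 117 in auxin. STAG2 stood at 28.6 and 36.4 per kb in control and 35.1 and 41.6 in auxin. The sum of the pair per kb was 92.1 and 108 in control and 142 and 159 in auxin, with no overlap. STAG1 thus supplied 69.0% and 66.4% of the pair's signal per kb in control and 75.3% and 73.8% in auxin. These are levels of nascent RNA, and protein was not measured here.

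**Figure D2:**
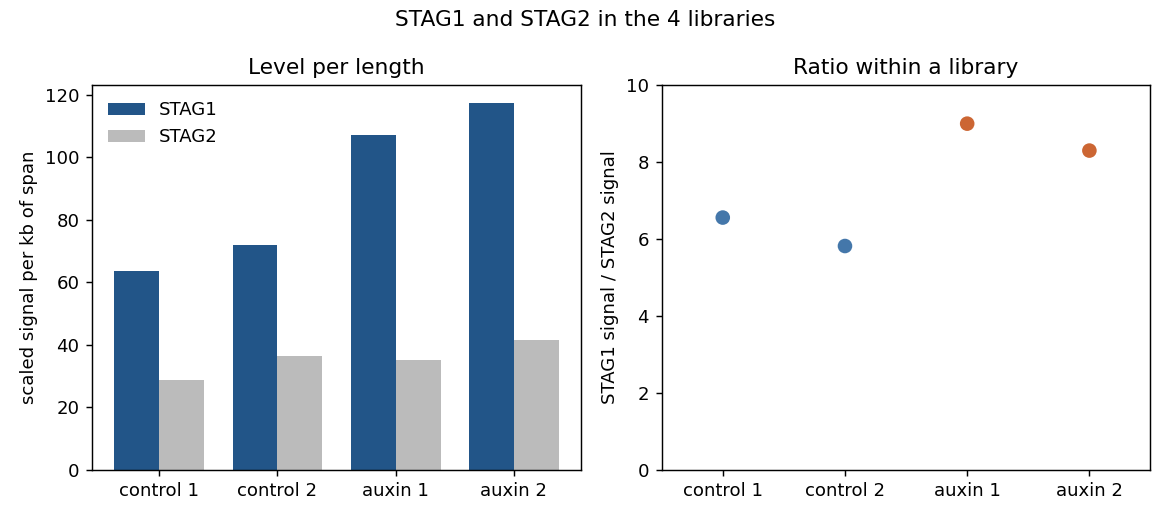
Left, scaled signal per kb of span of STAG1 and STAG2 in each library (bars, from 0). Right, the ratio of STAG1 to STAG2 signal within each library, which lies at 6.55 and 5.81 in control and at 8.99 and 8.29 in auxin.

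Values inside and beside STAG1 were then read for where along the gene the signal differed. The table lists 4 short genes within its span, which may share signal with it. AC117382.1, a processed pseudogene 15.5 kb from the STAG1 start on the same strand, had 545 and 711 in control and 651 and 825 in auxin. These groups overlap, and the log2 fold change was 0.24 (standard error 0.21, limma adjusted p = 0.843). Its value equalled 2.06% and 2.38% of the STAG1 signal in control and 1.46% and 1.69% in auxin, lower in both auxin libraries. Per kb, however, it carried 11.7 and 13.5 times the STAG1 signal in control and 8.32 and 9.64 times in auxin. The median for short pseudogenes on the strand of their host was 1.82. How much of its value is STAG1 signal was not tested, so it does not place the rise along the gene. HMGN1P10, a pseudogene 143 kb from the start on the other strand, had 56.2 and 65.6 in control and 76.6 and 131 in auxin, a log2 fold change of 0.71 (standard error 0.34, adjusted p = 0.518). RNU6-789P, at 30.9 kb, had 12.8 and 23.6 in control and 23.2 and 32.5 in auxin, a log2 fold change of 0.63 with a standard error of 0.50. RNU6-1284P, at 322 kb, was too low to be tested. The intervals of these small genes all include 0 and overlap that of STAG1, and reads from copies of the pseudogenes elsewhere could add to them. With all 4 subtracted, the log2 fold change of STAG1 was 0.74.

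The flanking protein-coding genes did not pass the test. PCCB, which encodes a mitochondrial propionyl-CoA carboxylase subunit and ends 6.07 kb beyond the STAG1 end, had 4770 and 4401 in control and 4358 and 4574 in auxin. Its log2 fold change was -0.038 (95% interval -0.34 to 0.26, limma adjusted p = 0.984). SLC35G2, a solute carrier family member 66.7 kb beyond the STAG1 start, had 1130 and 928 in control and 1176 and 1102 in auxin, a log2 fold change of 0.15 (95% interval -0.25 to 0.55, limma adjusted p = 0.899). The interval of PCCB lies wholly below that of STAG1, and that of SLC35G2 overlaps it. Beside STAG2, XIAP, an inhibitor of apoptosis, gave 0.15 (adjusted p = 0.816) and TEX13D, a low gene at 113 to 131 units, -0.12 (adjusted p = 0.967). AL121601.1, a lncRNA gene on the opposite strand that overlaps the STAG2 start, had 380 and 509 in control and 516 and 611 in auxin, without overlap. Its log2 fold change was 0.35 (standard error 0.22, limma adjusted p = 0.687).

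**Figure D3:**
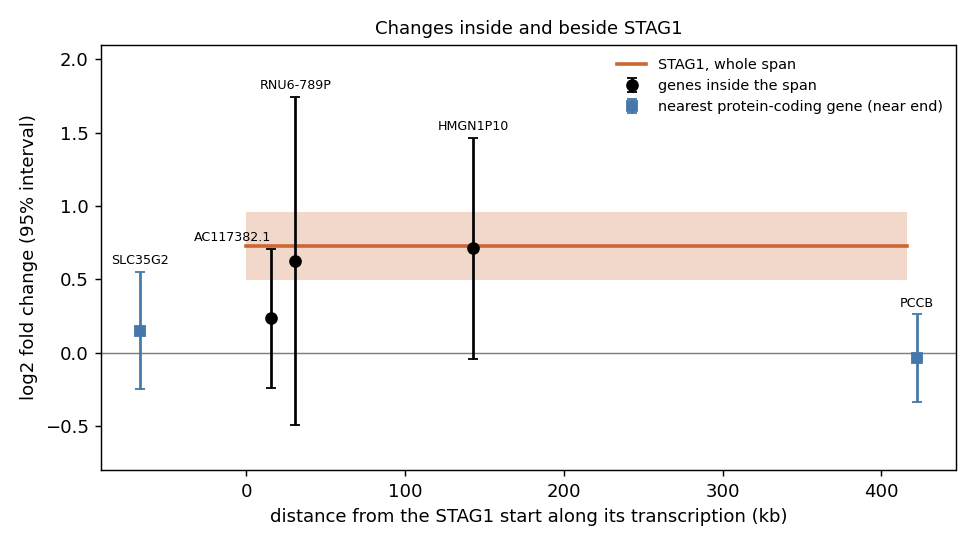
Log2 fold change (vertical axis) against distance in kb from the STAG1 start, with 95% intervals. The band is STAG1 over its whole span at 0.73, circles are the tested genes inside it, and squares are the nearest protein-coding genes, placed at their near ends. AC117382.1, close to the start, reads 0.24, but carries 8.32 to 13.5 times the STAG1 signal per kb.

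RAD21, the target of the degron, was at 5174 and 7200 in control and 5879 and 6245 in auxin. The auxin libraries lay between the controls, which differed 1.39-fold. The log2 fold change was -0.011 (95% interval -0.38 to 0.36, limma adjusted p = 0.996), and its sign turned with the scaling, to 0.0015 with median ratios and 0.032 with library size only. The degron acts on the protein, so these values do not check the group labels. RAD21 lies on chromosome 8 (minus strand, 116845934 to 116874776) and its span overlaps UTP23, RAD21-AS1 and MIR3610, which gave log2 fold changes of -0.068, 0.11 and 0.26, none called.

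Of the SMC arms, SMC1A was at 7168 and 8986 in control and 6091 and 8387 in auxin, with overlap between groups. SMC1A gave a log2 fold change of -0.17 (95% interval -0.55 to 0.22, limma adjusted p = 0.871). SMC3 was at 5027 and 6696 in control and 3953 and 4631 in auxin, both auxin libraries below both controls. The difference was -0.44 on the log2 scale (95% interval -0.81 to -0.069, limma adjusted p = 0.364), which failed the correction over all genes. Leaving out control replicate 2 moved it to -0.23, and leaving out control replicate 1 to -0.65. RAD21, which bridges the arms, stood at 1.03 and 1.08 times the SMC3 signal in control and 1.49 and 1.35 times in auxin, and SMC1A at 1.43 and 1.34 times in control and 1.54 and 1.81 times in auxin. Both ratios were higher in the auxin libraries without overlap (log2 differences 0.43 and 0.27, two-sided exact permutation p = 0.333 each, adjusted 0.417). Both divide by SMC3, so they are not observations separate from its lower signal in auxin.

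The loader and the releaser gave small differences. NIPBL was at 7599 and 7973 in control and 7876 and 7456 in auxin, a log2 fold change of -0.022 (95% interval -0.29 to 0.25, limma adjusted p = 0.991). Its groups overlapped and all 4 libraries lay close together. WAPL was at 12758 and 13338 in control and 12035 and 12622 in auxin, a log2 fold change of -0.082 (95% interval -0.33 to 0.17, adjusted p = 0.923). The auxin libraries of WAPL lay just below the controls, and the 2 groups were separated by less than either spread. NIPBL stood at 0.596 and 0.598 times WAPL in control and 0.654 and 0.591 times in auxin, with overlap (log2 difference 0.059, two-sided exact permutation p = 1).

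The PDS5 paralogues hold both releasing and stabilising roles on the ring, and neither passed the test. PDS5A was at 29942 and 28843 in control and 28911 and 29379 in auxin, with overlap. It gave a log2 fold change of -0.012, with an interval from -0.23 to 0.20 (limma adjusted p = 0.993). PDS5B was at 7008 and 7762 in control and 5375 and 5715 in auxin, all auxin values below all controls. PDS5B gave a log2 fold change of -0.41 (95% interval -0.70 to -0.12, limma adjusted p = 0.241), which also failed the correction. PDS5B stood at 0.234 and 0.269 times PDS5A in control and 0.186 and 0.195 times in auxin. The log2 ratio was lower by 0.40 in auxin (auxin mean -2.39, control mean -1.99) without overlap of the groups, with the same permutation p of 0.333 (exact, two-sided; adjusted 0.417).

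CTCF was at 16389 and 16464 in control and 17940 and 18426 in auxin. Both auxin libraries lay above both controls, and the controls were nearly equal. The log2 fold change was 0.15 (95% interval -0.087 to 0.38, limma adjusted p = 0.755), and the difference did not pass the test. The lncRNA gene AC009095.1 inside the CTCF span gave 0.14 and AC027682.4, which overlaps its start on the other strand, 0.057.

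**Figure D4:**
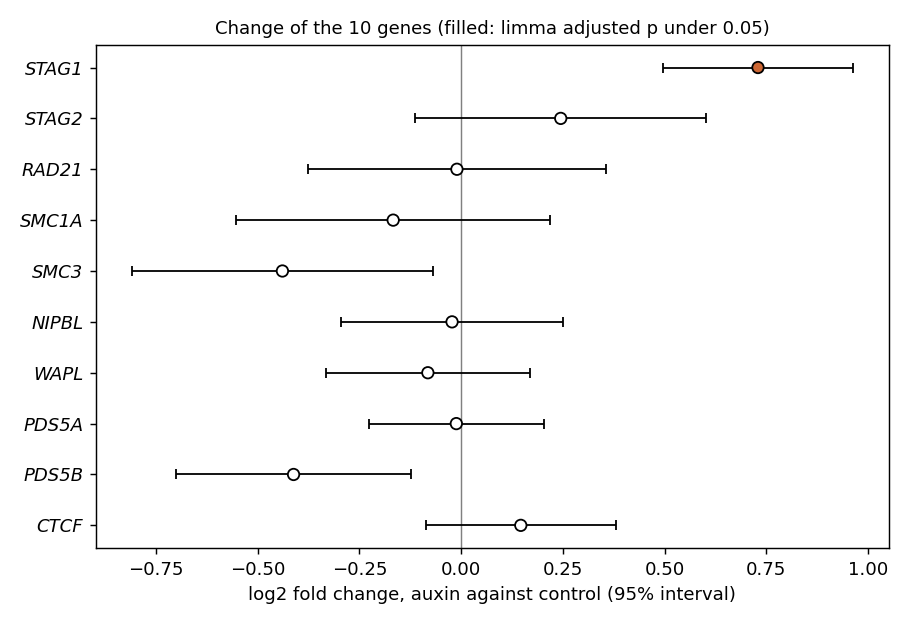
Log2 fold change of auxin against control (horizontal axis) for the 10 genes, with 95% limma intervals. The filled point, STAG1, has an adjusted p under 0.05. The intervals of SMC3 and PDS5B lie below 0 before correction for the number of genes tested, and the other 7 include 0.

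Over the set, 1 of 10 members was called higher and 0 lower by limma with Benjamini-Hochberg adjustment, beside 0.737% of all tested genes called in either direction. At an unadjusted p under 0.05 there were 3 (STAG1 higher, SMC3 and PDS5B lower), beside 10.3% of all genes (4.60% higher and 5.71% lower). The groups did not overlap in 5 members, 2 higher (STAG1, CTCF) and 3 lower (SMC3, WAPL, PDS5B), beside 38.3% of all genes, 18.0% higher and 20.2% lower. Over the members the log2 fold changes had a median of -0.017, beside 0.0013 for all tested genes. With the replicate number as a block, 3 members were called, STAG1 higher and SMC3 and PDS5B lower, beside 10.9% of all genes (4.77% higher and 6.17% lower); nothing in the labels says that the numbers pair the libraries.

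Replicates of these genes differed unequally. Control replicate 2 was above control replicate 1 for 9 of the members, by up to 1.39-fold for RAD21, 1.33-fold for SMC3 and 1.28-fold for STAG2. The controls of CTCF, PDS5A, WAPL and NIPBL were the closest, within 1.05-fold of each other. Auxin replicates differed most in SMC1A, by 1.38-fold.

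Levels per kb of span put CTCF first at 226 ± 13.5 over the 4 libraries (SD, n = 4), followed by RAD21 at 212 ± 29.2 and PDS5A at 189 ± 3.28. SMC1A was at 158 ± 26.5, WAPL at 147 ± 6.18 and SMC3 at 132 ± 30.4. STAG1 was next at 90.0 ± 26.2, and NIPBL at 40.7 ± 1.26, STAG2 at 35.4 ± 5.38 and PDS5B at 33.7 ± 5.82 were lowest. The order depends on the group in places. In control RAD21 and CTCF were level (means of 215 and 214), SMC3 lay above WAPL (153 and 151) and PDS5B above STAG2 (38.5 and 32.5), and in auxin STAG1 and SMC3 were level (both 112). In the pooled order the ranges over libraries separate PDS5A from SMC1A, narrowly, and STAG1 from NIPBL, and all other neighbours overlap. STAG1 and SMC3 were apart in control (63.5 and 71.9 against 131 and 175 per kb) and overlapped in auxin (107 and 117 against 103 and 121). These are levels over whole spans, and whether the values separate strands is not known.

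Among 13 genes that regulate cohesin, none was called, beside 0.737% of all tested genes. At an unadjusted p under 0.05 there was 1, beside 10.3% of all genes: DDX11, a helicase that acts in sister chromatid cohesion. DDX11 was at 8646 and 9412 in control and 5718 and 6106 in auxin, without overlap. Its log2 fold change was -0.61 (standard error 0.13, limma adjusted p = 0.0683); DDX11 has near-identical relatives in the genome, so its value is uncertain. MAU2, the partner of NIPBL in loading, gave 0.16 (adjusted p = 0.867), and the SMC3 acetyltransferases ESCO1 and ESCO2 gave 0.061 and -0.13. HDAC8, which removes that acetyl group, gave 0.038, and CDCA5 (sororin), which protects cohesion from WAPL, gave -0.39 (adjusted p = 0.510). The 13 had a median log2 fold change of 0.025.

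The meiotic paralogues of the ring gave no call among 4 genes. STAG3, the meiotic counterpart of STAG1 and STAG2, was at 1218 and 1197 in control and 1192 and 1190 in auxin (log2 fold change -0.020, limma adjusted p = 0.993). SMC1B gave 0.095 and RAD21L1, at a mean of 49.5 units in auxin, -0.18. REC8, the meiotic counterpart of RAD21, was at 2573 and 1961 in control and 1854 and 1378 in auxin, a log2 fold change of -0.49 (limma adjusted p = 0.413) and the 1 gene of these with an unadjusted p under 0.05. None of these 4 passed the test in either direction.

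Of 9 other zinc-finger and looping factors, none was called, and 2 had an unadjusted p under 0.05, beside the same 10.3%. VEZF1, a zinc-finger transcription factor, was at 3555 and 4027 in control and 2603 and 2343 in auxin (log2 fold change -0.62, limma adjusted p = 0.124). MAZ, a zinc-finger protein found with CTCF at loop borders, was at 5535 and 5353 in control and 4549 and 3357 in auxin (log2 fold change -0.48, adjusted p = 0.294). CTCFL, the testis paralogue of CTCF, was low, at 23.0 to 31.1 units in the 4 libraries. PATZ1 gave -0.25, YY1 -0.18, ADNP -0.16, WIZ -0.044, ZNF143 -0.018 and LDB1 0.079. The 9 had a median log2 fold change of -0.16, with 7 below 0 and 2 above. In 4 of the 9 the groups did not overlap, all with auxin lower, beside 20.2% of all genes lower. Over all 26 listed genes 4 had an unadjusted p under 0.05, beside 10.3% of all genes tested. All 4 were lower, beside 5.71% of all genes. Their median log2 fold change was -0.032.

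**Figure D5:**
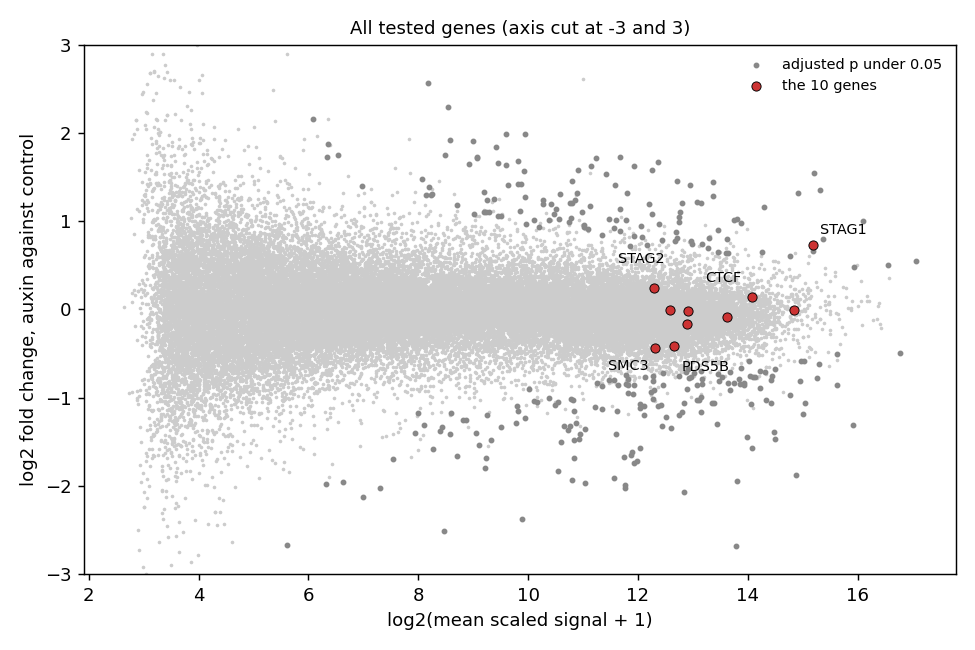
Log2 fold change (vertical axis; points beyond its ends are not drawn) against log2 of the mean scaled signal plus 1 for the 39464 tested genes. Dark grey points have an adjusted p under 0.05 and the 10 genes are red. STAG1 lies among the called genes at the right, and the other members lie within the cloud.

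The protein-coding genes whose pattern over the 4 libraries was most like that of STAG1 were found by Euclidean distance between log2 values centred per gene, over 15993 genes. They were MAP1LC3B, MRGPRF, MIEF2, ANXA11 and OR2A4, at distances of 0.0950 to 0.103. ANXA11, an annexin gene, came close in level too, at 26592 and 31294 in control and 42287 and 49611 in auxin, and was called (log2 fold change 0.67, limma adjusted p = 0.0356). MAP1LC3B, an autophagy gene, was at 1579 and 1711 in control and 2609 and 2668 in auxin and was not called (adjusted p = 0.0898). The other 3 were not called either (limma adjusted p = 0.0902 for MIEF2, 0.381 for MRGPRF and 0.461 for OR2A4). OR2A4 was low, at 41.7 and 50.2 in control and 76.6 and 77.2 in auxin. The genes were picked for their likeness to STAG1, so higher values in auxin were fixed by the choice. A likeness over 4 libraries describes these values only.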

How the data were processed

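The authors deposited 1 table for the series. Per the submitters' processing notes, Trimmomatic 0.39, Bowtie2 2.4.5 and deepTools 3.5.1 were used with builds hg38 and dm6; the counting rule and scale factors are not given in the sources used here. Per the labels' protocols, labelled fly S2 RNA was mixed with the human RNA before capture. The deposited values were taken to be a scaled signal. Low values were whole multiples (within 0.02) of 1 step per library, worth 0.727 to 1.36, but among genes of at least 10 kb 141 to 221 per library were at 2 steps and 2 to 8 at 1, so steps were not read as reads and depth is unknown. The deposited other values used were gene spans; starts count from 0 and are printed 1 higher. One control column name is misspelt and was assigned by its replicate number.

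Genes with at least 10 (at the median library total) in 2 libraries and a total of 15 were tested, 39464 in all. Scale factors came from the TMM method, trimming 30% of ratios and 5% of mean levels, and log2(value + 1), which understates the change of low genes, was fitted with limma 3.58.1 in R 4.3.3 (lmFit, eBayes with trend, Benjamini-Hochberg adjustment over all genes). The procedure was tested on simulated data. Other steps used Python 3.11.15 and pandas 2.3.3. Named were all members, called genes of the pathway lists, genes overlapping or flanking STAG1 and STAG2, and the 5 most like STAG1; other listed genes (DDX11, VEZF1, MAZ, REC8 and those beside them) were named after their values were seen. The members and lists were chosen with earlier results of these data known. Promoter sequences come from RefSeq (GRCh38.p14).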

Additional observations from a re-analysis of the deposited data

How the results depend on the processing

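The alternatives were other scalings, pseudocounts of 0.1 and 10, no filter, a mean of at least 50, no intensity trend, an adjusted p under 0.01, the replicate block and leaving out each library, with removal of the span trend and subtraction of inner genes chosen after seeing the data. STAG1 was higher under each of them, with log2 fold changes of 0.64 (adjusted p = 0.0327) to 0.82 without one library at a time, STAG2 at 0.069 to 0.42, SMC3 at -0.65 to -0.23, PDS5B at -0.49 to -0.34, WAPL at -0.12 to -0.048, CTCF at 0.13 to 0.17 and the log2 STAG1 to STAG2 ratio at 0.40 to 0.57; where a group is left with 1 library, it is assumed to vary like the other group. The limma adjusted p of STAG1 ranged over the alternatives from 1.04e-12 (block) to 1.0 (deposited scale). On the deposited scale 55 genes and 0 members were called (1042 genes and 0 members at an unadjusted p under 0.05), STAG1 at 0.72; the cause was not tested. Without the intensity trend 0 genes and 0 members were called (3208 and 1 at an unadjusted p under 0.05), STAG1 at 0.73 with an adjusted p of 0.530. An adjusted p under 0.01 left 82 genes and 0 members, fewer by construction. Without one library at a time 217 (control replicate 2), 343 (control replicate 1), 528 (auxin replicate 2) or 670 (auxin replicate 1) genes were called and 1 member, STAG1. Library size alone as the scale gave 142 higher and 128 lower calls, against 130 and 161.

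The replicate numbers are not said to pair the libraries, and the replicate differences of control and auxin correlated across genes with Pearson's r of 0.231, and of 0.462 over the 29160 genes with a mean of at least 50, which include all members. With the replicate block 4314 genes (10.9%) were called and 3 members, STAG1, SMC3 (adjusted p = 7.77e-04) and PDS5B (0.00139); prior degrees of freedom were infinite there, so all genes shared 1 trend of spread.

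Differences near 0 changed sign: RAD21 was 0.0015 with median-ratio scaling, 0.032 with library size only, 0.228 without control replicate 2 and 0.033 without auxin replicate 1, and -0.25 to 0.23 over the libraries left out. NIPBL was 0.020 and PDS5A 0.031 with library size only, and PDS5A 0.0079 with the span trend removed. Without single libraries NIPBL reached 0.017 (-0.062 to 0.017), PDS5A 0.015 (-0.039 to 0.015), SMC1A 0.064 (-0.40 to 0.064) and the NIPBL to WAPL log2 ratio -0.014 (to 0.13).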
